A study of Mus musculus with 8 samples.

Results

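The genes described here are 9 genes of hepatic fat synthesis: Acly, Acaca, Fasn, Elovl6, Scd1, Me1, Thrsp, Gpam and Dgat2. They were taken by name, as the probes of the deposited unscaled array table that carry these symbols. Earlier results of these data were known when the genes were chosen. The table names 7 of them by the current symbol, and Acaca and Me1 were found under the older symbols Acac and Mod1. The 9 genes had 10 probes, out of 25697 probes for 17861 genes on the array, since Me1 had 2. All 10 probes were above background on all 8 arrays, and all 9 genes were among the 10141 features tested.

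De novo lipogenesis turns surplus carbohydrate into fatty acids. Citrate exported from mitochondria is cleaved to acetyl-CoA, acetyl-CoA is carboxylated to malonyl-CoA, and fatty acid synthase builds palmitate from both with NADPH. Palmitate is then elongated, desaturated and esterified to triglyceride. In liver the genes of this route are known targets of insulin acting through SREBP-1c, and of glucose acting through ChREBP. Mice homozygous for the ob mutation lack functional leptin, are obese and hyperinsulinaemic, and have fatty livers.

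The study measured liver RNA of adult male ob/ob mice treated with leptin for 12 days, with 1 Illumina BeadChip array per sample. The groups were 0 ng/hr (control, replicates 1 to 3), 12.5 ng/hr (replicates 4 and 5) and 25 ng/hr (replicates 6 to 8). All mice therefore lacked their own functional leptin, and the groups differed in the dose given. The ob/ob genotype comes from the series title, and the labels do not say that each array holds a separate animal, so p-values may measure a spread that is only technical. Groups were taken from title, source and dose, because the agent entry of the labels reads untreated at 25 ng/hr and leptin at 0 ng/hr. Each direction below rests on the dose being right.

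Mean unscaled intensity per array lay between 456 and 532, and 12094 to 12783 probes per array (47.1% to 49.7%) were above background, with a detection p-value under 0.05. Of 5 hepatocyte markers on the array, Ttr, Apoa1 and Cps1 were above background, while the probes listed for Alb and Tat were so on no array. Values below are normalized intensities, background-corrected and quantile-normalized on a linear scale. They compare 1 probe between arrays, never 1 probe with another. In bulk liver, fewer cells of a type and less RNA per cell cannot be told apart. Array positions on the BeadChip follow the order of the groups, so position and dose cannot be told apart either. Precision is limited by the small number of arrays.

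Sequence just upstream of the start site is shown for Acly, Acaca, Fasn, Elovl6 and Gpam, the 5 genes with the highest pairwise correlations across the arrays, because shared control of these genes is usually studied there. The windows hold the 250 bases before the annotated start, from RefSeq on GRCm38.p6, written 5′ to 3′ along the gene. They lie at chr11:100528001-100528250 for Acly (minus strand), chr11:84195188-84195437 for Acaca (plus strand), chr11:120824548-120824797 for Fasn (minus strand), chr3:129532136-129532385 for Elovl6 (plus strand) and, for the 2 annotated Gpam starts (minus strand), chr19:55127239-55127488 and chr19:55099478-55099727. Capitals mark matches on either strand to CCAAT (the NF-Y box), GGGCGG (the GC box), CACGTG (the E-box) and CACCCCAC (a core of a sterol regulatory element).
Acly: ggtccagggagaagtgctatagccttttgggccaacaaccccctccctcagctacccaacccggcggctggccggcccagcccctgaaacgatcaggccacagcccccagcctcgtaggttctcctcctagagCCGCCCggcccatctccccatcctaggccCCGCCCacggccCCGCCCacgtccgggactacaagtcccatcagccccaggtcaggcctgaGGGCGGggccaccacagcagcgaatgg
Acaca: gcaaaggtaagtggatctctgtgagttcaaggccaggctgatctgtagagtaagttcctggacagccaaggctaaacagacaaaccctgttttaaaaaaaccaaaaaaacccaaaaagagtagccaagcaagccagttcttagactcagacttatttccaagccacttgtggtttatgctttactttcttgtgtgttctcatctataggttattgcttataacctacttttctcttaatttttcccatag
Fasn: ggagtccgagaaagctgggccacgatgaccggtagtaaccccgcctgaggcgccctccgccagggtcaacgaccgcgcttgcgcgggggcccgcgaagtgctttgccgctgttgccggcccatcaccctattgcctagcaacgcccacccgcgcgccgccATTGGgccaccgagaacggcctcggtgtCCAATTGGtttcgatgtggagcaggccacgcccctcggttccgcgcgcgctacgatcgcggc
Elovl6: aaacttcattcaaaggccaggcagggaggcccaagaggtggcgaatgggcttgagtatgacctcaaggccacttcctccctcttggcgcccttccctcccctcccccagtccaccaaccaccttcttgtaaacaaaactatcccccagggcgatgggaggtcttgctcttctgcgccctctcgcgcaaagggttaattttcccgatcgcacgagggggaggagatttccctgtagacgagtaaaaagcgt
Gpam, upstream start: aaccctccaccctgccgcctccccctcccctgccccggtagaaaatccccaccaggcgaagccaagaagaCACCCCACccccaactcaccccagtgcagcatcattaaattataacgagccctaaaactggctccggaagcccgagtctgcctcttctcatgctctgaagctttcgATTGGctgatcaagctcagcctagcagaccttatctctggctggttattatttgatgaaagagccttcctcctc
Gpam, downstream start: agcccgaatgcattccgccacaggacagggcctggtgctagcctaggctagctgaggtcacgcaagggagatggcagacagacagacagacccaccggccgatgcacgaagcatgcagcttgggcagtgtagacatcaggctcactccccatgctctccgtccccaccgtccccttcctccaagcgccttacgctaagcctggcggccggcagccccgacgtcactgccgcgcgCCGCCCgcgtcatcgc
The Acly window holds 4 GC boxes, and the Fasn window 3 NF-Y boxes, of which a pair on opposite strands overlaps. The Acaca and Elovl6 windows hold none of these motifs. The Acaca window ends in a pyrimidine-rich stretch followed by AG, and whether it is promoter or intron was not tested. Its lack of motifs therefore says nothing of other Acaca starts. At the upstream Gpam start the window holds 1 NF-Y box and 1 sterol regulatory element core, and at the downstream start 1 GC box and neither of these. The RefSeq table had 9 windows for 7 of the 9 genes, with Me1 and Gpam at 2 starts each. CCAAT was present in 4 of these 9 windows and in 33.8% of all 32851 mouse windows of this length. GGGCGG was present in 3 of 9 and in 32.7% of all, CACGTG in 0 of 9 and in 6.02%, and CACCCCAC in 1 of 9 and in 2.58%. A match is a description of the letters, not a site.

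Acly encodes ATP citrate lyase, which makes cytosolic acetyl-CoA. Its intensity was 7688, 14246 and 7833 at 0 ng/hr, 7884 and 13900 at 12.5 ng/hr, and 5598, 5771 and 8537 at 25 ng/hr. Control replicate 2 and 12.5 ng/hr replicate 5 stood well above the other 6 arrays, and the groups overlapped in every comparison. The mean was 6635 ± 1649 at 25 ng/hr and 9922 ± 3745 at 0 ng/hr (SD, n = 3 each). The log2 difference of 25 minus 0 ng/hr was -0.55 (SE 0.30, 95% interval -1.22 to 0.12), with an adjusted p of 0.385 in limma's test.

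Acaca encodes acetyl-CoA carboxylase 1, which makes malonyl-CoA. Its intensity was 3496, 5052 and 3665 at 0 ng/hr, 2977 and 4721 at 12.5 ng/hr, and 2209, 2583 and 3345 at 25 ng/hr. All 25 ng/hr arrays lay below all controls, but they overlapped the 12.5 ng/hr arrays. The mean was 2712 ± 579 at 25 ng/hr and 4071 ± 854 at 0 ng/hr (SD, n = 3 each). Acaca had a log2 difference of 25 minus 0 ng/hr of -0.59 (SE 0.22, 95% interval -1.09 to -0.08), with an adjusted p of 0.227 in limma's test.

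Fasn encodes fatty acid synthase. The probe gave a low signal, 91.9 to 194 before scaling, so its values depend on the background correction. After correction the intensity was 90.2, 125 and 87.8 at 0 ng/hr, 80.1 and 131 at 12.5 ng/hr, and 50.8, 64.7 and 83.3 at 25 ng/hr. As for Acaca, the 25 ng/hr arrays lay below all controls and overlapped the 12.5 ng/hr arrays. The mean was 66.3 ± 16.3 at 25 ng/hr and 101 ± 21.0 at 0 ng/hr (SD, n = 3 each). Fasn had a log2 difference of 25 minus 0 ng/hr of -0.62 (SE 0.24, 95% interval -1.16 to -0.08, adjusted p = 0.235 in limma's test), which was -0.40 with no background correction. The authors' deposited table gives 0.747 as the ratio of group means, 25 over 0 ng/hr, for Fasn, 0.683 for Acaca and 0.685 for Acly.

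Elovl6 encodes the elongase that lengthens palmitate to stearate. Its intensity was 2512, 4403 and 2110 at 0 ng/hr, 1833 and 4606 at 12.5 ng/hr, and 1198, 1340 and 2838 at 25 ng/hr. The groups overlapped, because 25 ng/hr replicate 8 lay above 2 of the 3 controls. Elovl6 had the lowest estimate of the 9 genes, -0.79 for 25 minus 0 ng/hr on the log2 scale, and the widest interval, -1.77 to 0.20 (SE 0.43, adjusted p = 0.396 in limma's test).

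Scd1 encodes stearoyl-CoA desaturase 1, which makes oleate, and is known as a leptin-repressed gene of ob/ob liver. Its intensity was 25733, 28157 and 25450 at 0 ng/hr, 29594 and 28610 at 12.5 ng/hr, and 18545, 24991 and 28157 at 25 ng/hr. Both 12.5 ng/hr arrays lay above all controls, as for 14.9% of all features, and above all 25 ng/hr arrays. The first of these depends on the normalization. Before scaling, control replicate 2 read 30098, above both 12.5 ng/hr arrays (29958 and 29697). Within the 25 ng/hr group replicate 6 was low and replicate 8 as high as the highest control. Scd1 had a log2 difference of -0.17 for 25 minus 0 ng/hr (SE 0.15, 95% interval -0.50 to 0.17), which was 0.0098 without 25 ng/hr replicate 6. The difference of 25 minus 12.5 ng/hr was -0.31 (SE 0.17, 95% interval -0.68 to 0.07, adjusted p = 0.477 in limma's test). The Scd1 probe was bright, at 18462 to 30098 before scaling, and the brightest probe of each array reached 35691 to 44884. Whether the probe was near saturation was not tested.

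Me1 encodes cytosolic malic enzyme, a source of NADPH. The kept probe read 2329, 4235 and 2347 at 0 ng/hr, 2287 and 3156 at 12.5 ng/hr, and 1574, 2593 and 3565 at 25 ng/hr. The 25 ng/hr arrays spread over 2.26-fold and enclosed all 12.5 ng/hr arrays. The log2 difference of 25 minus 0 ng/hr was -0.22 (SE 0.32, 95% interval -0.96 to 0.51), which turned to 0.063 without control replicate 2 and to 0.092 without 25 ng/hr replicate 6. In a fit of all 13760 detected probes the other Me1 probe gave -0.10 (SE 0.33) for the same comparison, and 0.21 (SE 0.37) for 12.5 minus 0 ng/hr, where the kept probe gave -0.09 (SE 0.36).

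Thrsp encodes Spot 14, a small regulator of lipogenesis that responds to thyroid hormone and carbohydrate. Its intensity was 8433, 11879 and 8548 at 0 ng/hr, 10000 and 10926 at 12.5 ng/hr, and 8433, 7318 and 8509 at 25 ng/hr. The 25 ng/hr arrays lay below both 12.5 ng/hr arrays, and replicate 7 lay below all controls. Thrsp had a log2 difference of -0.37 for 25 minus 12.5 ng/hr (SE 0.16, 95% interval -0.74 to -0.0049, adjusted p = 0.366 in limma's test) and of -0.24 (SE 0.15) for 25 minus 0 ng/hr.

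Gpam encodes the mitochondrial glycerol-3-phosphate acyltransferase, which starts triglyceride synthesis. Its intensity was 411, 530 and 460 at 0 ng/hr, 386 and 602 at 12.5 ng/hr, and 248, 312 and 453 at 25 ng/hr. Replicates 6 and 7 lay below every other array, and replicate 8 lay among the controls. Gpam had a log2 difference of 25 minus 0 ng/hr of -0.50 (SE 0.24, 95% interval -1.04 to 0.03), with an adjusted p of 0.322 in limma's test.

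Dgat2 encodes a diacylglycerol acyltransferase, which completes triglyceride synthesis. Its intensity was 9950, 10574 and 9346 at 0 ng/hr, 10205 and 10078 at 12.5 ng/hr, and 9346, 9136 and 10948 at 25 ng/hr. These values were close together and overlapped between groups. Dgat2 had a log2 difference of -0.02 for 25 minus 0 ng/hr (SE 0.10), and its 95% interval, -0.26 to 0.21, was the narrowest of the 9. The estimate for Dgat2 turned to 0.021 without control replicate 2, to 0.0089 without 25 ng/hr replicate 6 and to 0.025 without 25 ng/hr replicate 7.

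**Figure D1:**
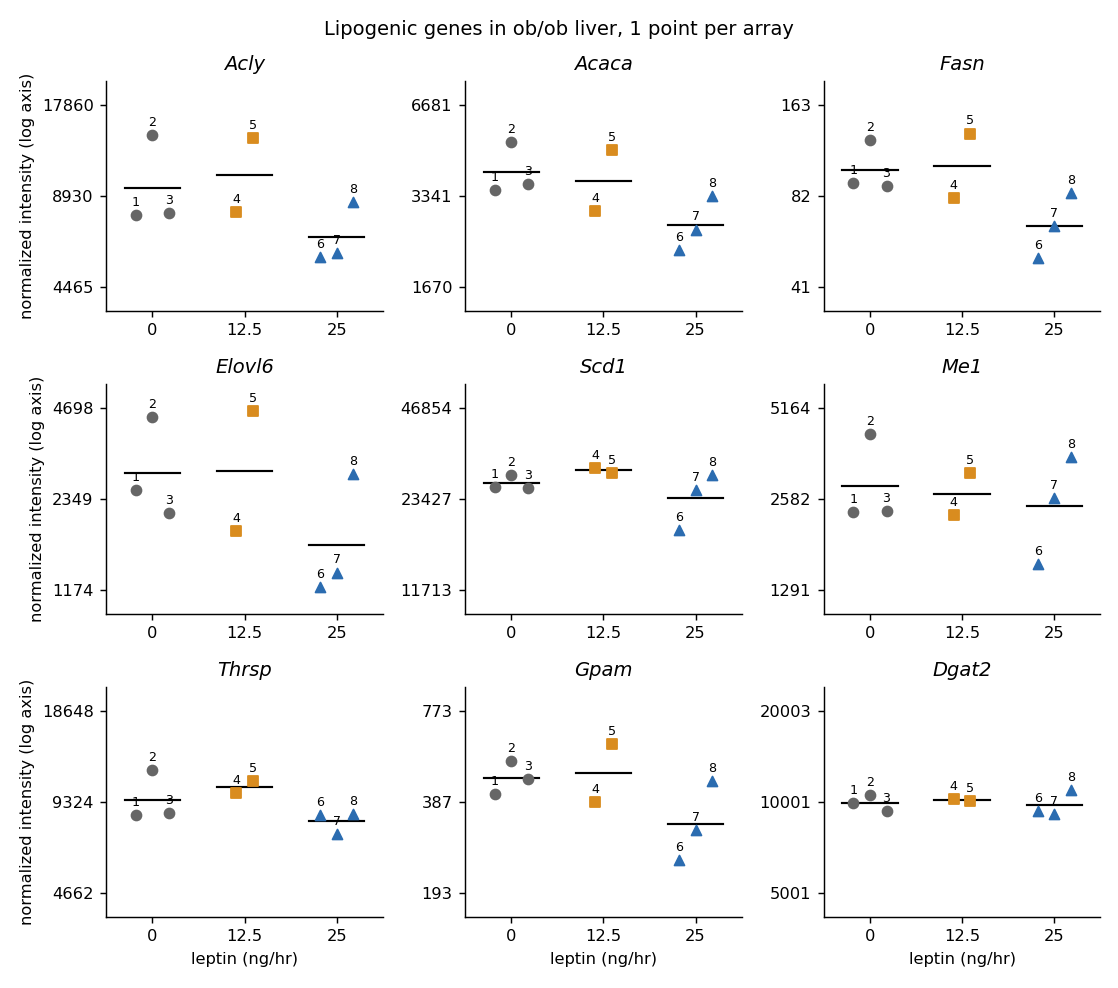
Normalized intensity of the 9 genes on a log axis against leptin dose (ng/hr), 1 point per array with its replicate number. Bars mark the mean of the log2 values of a group. For Acly, Acaca, Fasn and Elovl6, control replicate 2 and 12.5 ng/hr replicate 5 are the 2 highest arrays, while Dgat2 stays between 9136 and 10948.

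At 25 against 0 ng/hr all 9 genes had an estimate below 0, and none passed the threshold. The estimates of Scd1, Me1 and Dgat2 turned above 0 when 1 array was left out, as given with each gene, and those of the other 6 genes did not. The threshold was an adjusted p of 0.05 in limma's fit, which 90 of the 10141 features (0.887%) and 0 of the 9 genes met. Their adjusted p-values ran between 0.227 and 0.931. The median log2 difference of the 9 genes was -0.50 (range -0.79 to -0.02), beside -0.0025 over all features, of which 50.5% were below 0. The 9 genes varied together across arrays, so 9 estimates below 0 are not 9 independent observations. Acaca (unadjusted p = 0.0271 in limma's test) and Fasn (unadjusted p = 0.0294) were under 0.05, among 8.56% of features that were so in this direction. The same 2 genes had groups that did not overlap with 25 ng/hr lower, as had 11.7% of all features. Leaving out 1 array moved the median to -0.25 without control replicate 2 and to -0.30 without 25 ng/hr replicate 6, and to -0.74 without 25 ng/hr replicate 8.

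At 12.5 against 0 ng/hr the estimates lay on both sides of 0. Acaca (-0.10) and Me1 (-0.09) were below 0, the other 7 genes were above, and the median was 0.04, beside 0.0022 over all features, of which 49.4% were below 0. In limma's test 0 of 10141 features passed (0%), and 1167 had an unadjusted p under 0.05, with 0 of the 9 genes in either count. With no background correction 9 features passed, with the authors' scaled intensities 10, and with an intensity-dependent variance prior 7. Of the 9 genes 1, Scd1, had groups that did not overlap with 12.5 ng/hr higher, as had 14.9% of all features. The highest estimates were 0.14 for Acly (SE 0.33), Scd1 (SE 0.17) and Thrsp (SE 0.16), and adjusted p-values ran between 0.797 and 0.993. The median turned to -0.27 without 12.5 ng/hr replicate 5, and it was 0.23 without 12.5 ng/hr replicate 4 and 0.20 without control replicate 2.

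At 25 against 12.5 ng/hr all 9 estimates were again below 0. This comparison shares the 25 ng/hr arrays with the first, so both can follow the same arrays. In limma's test 43 features (0.424%) and 0 of the 9 genes passed, with adjusted p-values between 0.327 and 0.907. The median was -0.49, beside 0.00013 over all features, of which 50% were below 0. Fasn (-0.66, SE 0.27, unadjusted p = 0.0358 in limma's test) and Thrsp (unadjusted p = 0.0476) were under 0.05 without adjustment, as were 7.7% of features in this direction. Scd1 and Thrsp had groups that did not overlap with 25 ng/hr lower, as had 16.9% of all features. The median moved to -0.82 without 12.5 ng/hr replicate 4 and to -0.24 without 12.5 ng/hr replicate 5.

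**Figure D2:**
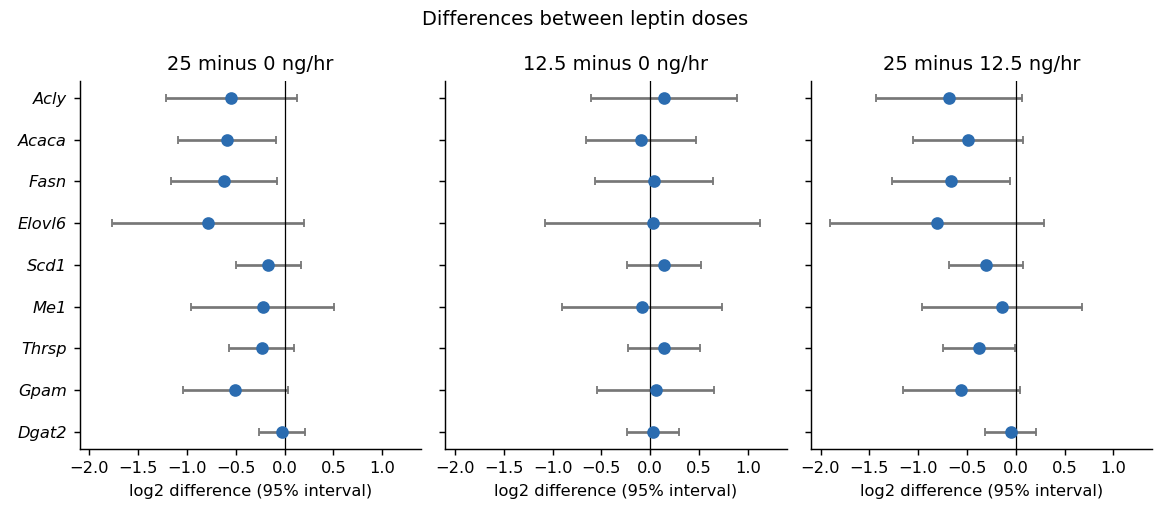
Log2 differences of the 9 genes (x axis) between leptin doses, as points with 95% intervals of limma's fit, in 1 panel per comparison. At 25 minus 0 ng/hr all 9 points lie below 0, and the intervals of Acaca (-1.09 to -0.08) and Fasn (-1.16 to -0.08) leave out 0.

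For most of these genes the spread within groups was high among the features tested. The residual SD of Elovl6, 0.69 on the log2 scale, exceeded that of 99.3% of the 10141 features, and Me1 (0.51) stood at the 98.3 percentile and Acly (0.46) at 97.8. Fasn (0.37), Gpam (0.36) and Acaca (0.34) stood at percentiles between 94.1 and 95.6, and the median over all features was 0.16. Scd1 (0.20) and Thrsp (0.20) were nearer the middle, at 69.7 and 67.3, and Dgat2 (0.11) was at 23.5. The share of a gene's variation that lay within groups was 47.0% for Fasn, the lowest of the 9, and 94.5% for Me1, the highest, beside a median of 62.1% over all features.

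This spread was shared between the genes. Control replicate 2 and 12.5 ng/hr replicate 5 were each above the gene's own mean over 8 arrays for 9 of the 9 genes, and were among the gene's 2 highest arrays for 8 and 7 of them. At 25 ng/hr, replicates 6 and 7 were above the mean for 0 of the 9 genes, and replicate 8 for 6 of them. With each gene's log2 values scaled to a mean of 0 and an SD of 1, the mean over the 9 genes was -0.09, 1.22 and -0.17 at 0 ng/hr, -0.02 and 1.03 at 12.5 ng/hr, and -1.43, -0.89 and 0.36 at 25 ng/hr. Control replicate 2 and 12.5 ng/hr replicate 5 also had the 2 highest mean unscaled intensities, 522 and 532, while replicate 8, with 456, had the lowest. The part of array brightness in the pattern was not tested.

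**Figure D3:**
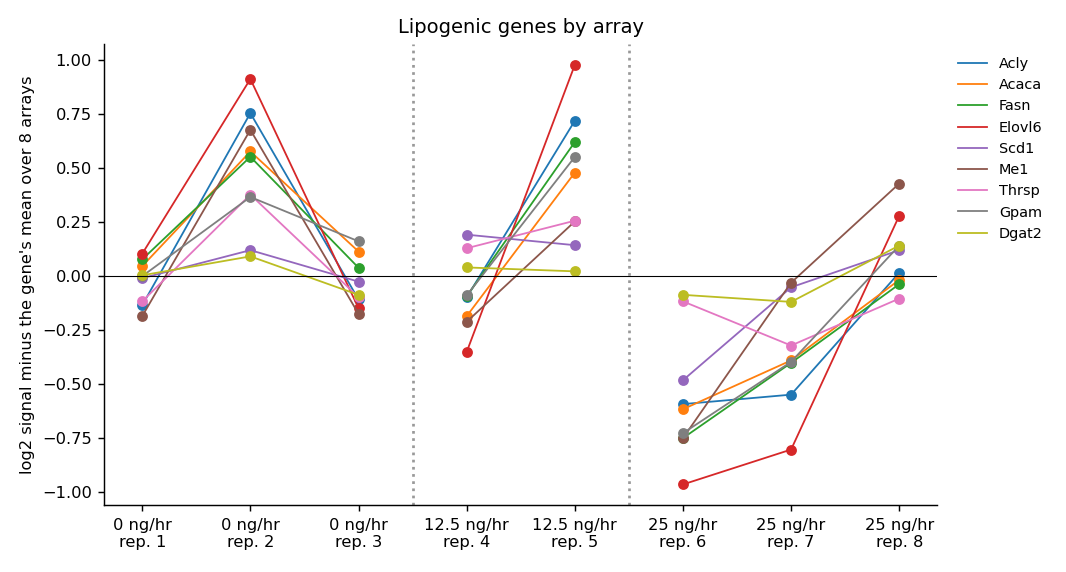
Log2 signal of each gene minus its own mean over the 8 arrays (y axis), by array and leptin dose (x axis), 1 colour per gene, with lines joining arrays of a group. Replicates 2 and 5 are above 0 for 9 genes and replicates 6 and 7 for 0, and Elovl6 spans the widest range, between -0.97 and 0.98.

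Pairwise correlations over the 8 arrays put a number on this. All 36 pairs of the 9 genes had a positive Pearson r, with a median of 0.77 and a range of 0.49 to 0.99, and a median Spearman rho of 0.75. By exact permutation of the 8 arrays, two-sided, 17 of the 36 pairs passed a Benjamini-Hochberg adjusted p of 0.05 for r, and 9 for rho. Without the 2 arrays farthest from the median of a pair's first gene, all 36 pairs were still positive, with a median r of 0.76 and a lowest of 0.16. With the group means removed all 36 were positive again, with a median r of 0.72, so the genes varied together among arrays of 1 dose. The closest pair was Acaca and Fasn, with r = 0.99 and rho = 0.95 (exact permutation p = 0.000124 and 0.00114, adjusted 0.00375 and 0.0161), and r was 0.98 without the 2 farthest arrays.

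How many pairs passed depended on the scaling, with 34 of 36 and a lowest r of 0.58 under median scaling, so the contrasts between genes in this paragraph hold for quantile normalization and were not examined gene by gene under the other. Acly, Acaca, Fasn, Elovl6 and Gpam, grouped after their values were seen, had r between 0.91 and 0.99 in their 10 pairs, and at least 0.88 without the 2 farthest arrays. Of the 8 pairs that involve Scd1, 2 passed (with Fasn, exact permutation p = 0.0225, adjusted 0.0496, and with Gpam, exact permutation p = 0.0172, adjusted 0.0477), and 0 by rho. For Fasn and Scd1, r was 0.76 over all arrays, 0.36 without the 2 farthest arrays and 0.65 with group means removed. Me1 passed in 4 of 8 pairs by r (adjusted p between 0.0466 and 0.0496 by exact permutation) and in 0 by rho. Without the 2 farthest arrays, r in these 4 pairs ran between 0.35, with Acaca, and 0.77, with Elovl6. Thrsp passed in 1 of 8 pairs, with Acly (r = 0.89), and Dgat2 in 0 of 8, with r between 0.55 and 0.71.

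**Figure D4:**
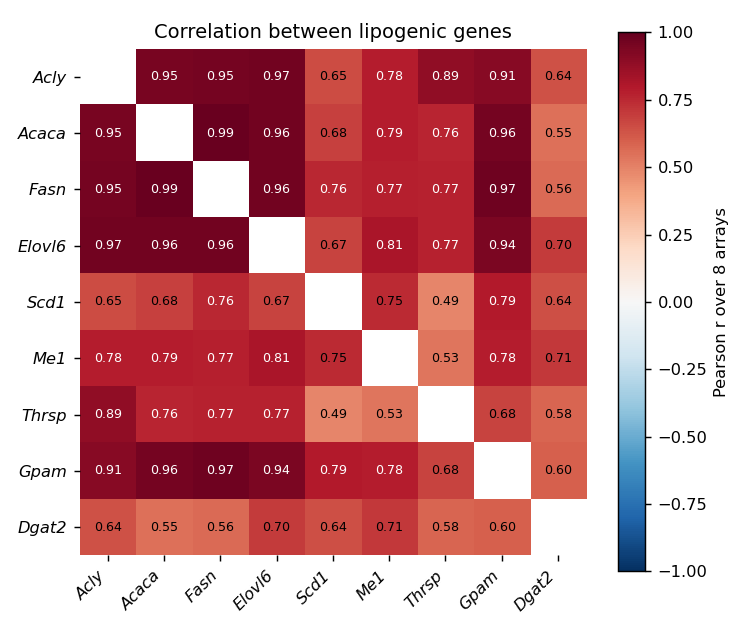
Pearson r between the log2 signals of each pair of genes over 8 arrays, in colour and as a number in each cell (both axes list the 9 genes). The range is 0.49, for Scd1 and Thrsp, to 0.99, for Acaca and Fasn.

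Among the 10132 other features, the one most like the mean pattern of the 9 genes was Pklr, with r = 0.98 over the 8 arrays. Pklr encodes liver pyruvate kinase, the last step of glycolysis and a known ChREBP target. Its intensity was 542, 833 and 557 at 0 ng/hr, 541 and 742 at 12.5 ng/hr, and 406, 444 and 581 at 25 ng/hr, so that replicates 2 and 5 were again the highest and 6 and 7 the lowest. Next came Kdm1a (r = 0.97), a histone demethylase gene, Glud1 (0.96), which encodes glutamate dehydrogenase, Tecpr2 (0.96) and Lipa (0.95), which encodes lysosomal acid lipase. These r values were picked as the highest of many and are descriptions over 8 arrays.

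Several of the enzymes that feed carbon and NADPH into the route had the same pattern, and others did not. Of 15 tested genes of this kind, 6 had r over 0.7 with it, where 4.73% of the 10132 other features did. Besides Pklr these were Pgd (0.92) and Tkt (0.87), enzymes of the pentose phosphate pathway, Cs (0.85), citrate synthase, Khk (0.84), the fructose kinase, and Pcx (0.74), pyruvate carboxylase. The r of the 15 had a median of 0.47 and ran down to -0.24, for Mdh1. Slc25a1 (-0.10), the gene of the citrate carrier, G6pdx (-0.15) and Acss1 (-0.04) were also among those below 0. The G6pdx probe was dim (40.8 to 60.6), and Acss1 was not above background on every array, so their r says little. None of the 15 passed the threshold in any comparison. For 25 minus 0 ng/hr 9 of 15 were below 0, with a median log2 difference of -0.19, for 12.5 minus 0 ng/hr 6 of 15, with a median of 0.05, and for 25 minus 12.5 ng/hr 14 of 15, with a median of -0.19. Khk (-0.52, SE 0.19, adjusted p = 0.204 in limma's test) and Taldo1 (-0.26, SE 0.09, adjusted p = 0.203) had the smallest p at 25 minus 0 ng/hr. Acss2, which encodes an acetyl-CoA synthetase, had 0.51 (SE 0.19, adjusted p = 0.353) at 12.5 minus 0 ng/hr.

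The transcripts for SREBP-1 and ChREBP had another pattern. Srebf1, which encodes SREBP-1, had r = -0.07 with the 9 genes, and Mlxipl, which encodes ChREBP, r = -0.33. Srebf1 intensity was 228, 265 and 223 at 0 ng/hr, 413 and 373 at 12.5 ng/hr, and 305, 356 and 248 at 25 ng/hr. Both 12.5 ng/hr arrays were above all others, and the log2 difference of 12.5 minus 0 ng/hr was 0.72 (SE 0.16, adjusted p = 0.191 in limma's test). Of 16 regulator genes tested, 1 had r over 0.7, Mid1ip1 (0.79), a paralog of Thrsp, and 1 had r under -0.7, Stk11 (-0.76), which encodes the kinase LKB1.

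Insig2, which encodes a protein that holds SREBP precursors in the endoplasmic reticulum, was the 1 regulator of the 16 that passed. It did so at 25 minus 0 ng/hr, as did 0.887% of all features. Insig2 intensity was 5925, 5707 and 5707 at 0 ng/hr, 3601 and 4257 at 12.5 ng/hr, and 3487, 4200 and 3752 at 25 ng/hr. All 5 leptin arrays lay below all 3 controls. Insig2 fell at 25 ng/hr, with a log2 difference of -0.60 (SE 0.11, adjusted p = 0.0461 in limma's test), and the estimate at 12.5 minus 0 ng/hr was -0.56 (SE 0.12, adjusted p = 0.179). Under 17 alternatives its adjusted p at 25 minus 0 ng/hr ran between 0.0120 and 0.152. The median log2 difference of the 16 regulators was 0.10 at 25 minus 0 ng/hr, with 6 below 0, and -0.04 at 12.5 minus 0 ng/hr, with 9 below 0.

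Among 14 other elongase and desaturase genes 1 passed, at 25 minus 0 ng/hr, where 0.887% of all features did. Elovl3, an elongase of very long chain fatty acids, had an intensity of 45.8, 40.5 and 50.8 at 0 ng/hr, 51.1 and 36.0 at 12.5 ng/hr, and 148, 128 and 81.1 at 25 ng/hr. All 25 ng/hr arrays lay above the rest. The probe was dim, so the size of its rise depends on the processing. With the authors' scaled intensities the log2 difference of 25 minus 0 ng/hr was 0.81. Elovl3 rose at 25 ng/hr, with a log2 difference of 1.34 (SE 0.23, adjusted p = 0.0386 in limma's test, 0.0135 to 0.143 under 17 alternatives), and its r with the 9 genes was -0.84. Fads2 (0.69, SE 0.17, adjusted p = 0.214) and Fads1 (0.51, SE 0.15, adjusted p = 0.279), the delta-6 and delta-5 desaturases, had the smallest p at 12.5 minus 0 ng/hr. Of the 14 genes 9 were above 0 at 25 minus 0 ng/hr (median 0.11) and 12 at 12.5 minus 0 ng/hr (median 0.22), while 11 were below 0 at 25 minus 12.5 ng/hr (median -0.17). By likeness to the mean pattern, 1 of them had r over 0.7, Elovl5 (0.74), and 2 had r under -0.7, Elovl3 and Elovl7 (-0.79). The median r of this list was 0.08.

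The remaining enzymes of fatty acid activation and triglyceride synthesis passed in no comparison. Of 9 genes for other acyl-CoA enzymes, 6 were above 0 at 25 minus 0 ng/hr (median 0.21) and 9 at 12.5 minus 0 ng/hr (median 0.21). Acsl5 (0.77) and Acot2 (0.73) were the 2 of this list with r over 0.7 with the mean pattern, and the list's median r was 0.12. Acot1, a thioesterase gene, had 0.52 (SE 0.19, adjusted p = 0.210 in limma's test) and Mlycd, malonyl-CoA decarboxylase, 0.34 (SE 0.12, adjusted p = 0.219) at 25 minus 0 ng/hr. Acsl3 (0.64, SE 0.26, adjusted p = 0.394) and Acsl1 (0.41, SE 0.20, adjusted p = 0.464), acyl-CoA synthetase genes, led at 12.5 minus 0 ng/hr. Of 13 other triglyceride synthesis genes, 8 were below 0 at 25 minus 0 ng/hr (median -0.08) and 8 at 12.5 minus 0 ng/hr (median -0.13). Lpin1, lipin 1, had 0.82 (SE 0.32, adjusted p = 0.235) and Mogat1 -0.33 (SE 0.14, adjusted p = 0.268) at 25 minus 0 ng/hr, and the acyltransferase genes Agpat1 (0.39, SE 0.10, adjusted p = 0.233) and Agpat4 (0.44, SE 0.12, adjusted p = 0.247) led at 12.5 minus 0 ng/hr. The Agpat1 and Agpat4 probes were dim, and with the authors' scaled intensities these estimates were 0.17 and 0.21. None of the 13 triglyceride synthesis genes had r over 0.7 with the 9 genes, and Gpat4 (-0.85) and Agpat5 (-0.83) had r under -0.7. Gpat4, like Gpam, is a glycerol-3-phosphate acyltransferase, of the endoplasmic reticulum.

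**Figure D5:**
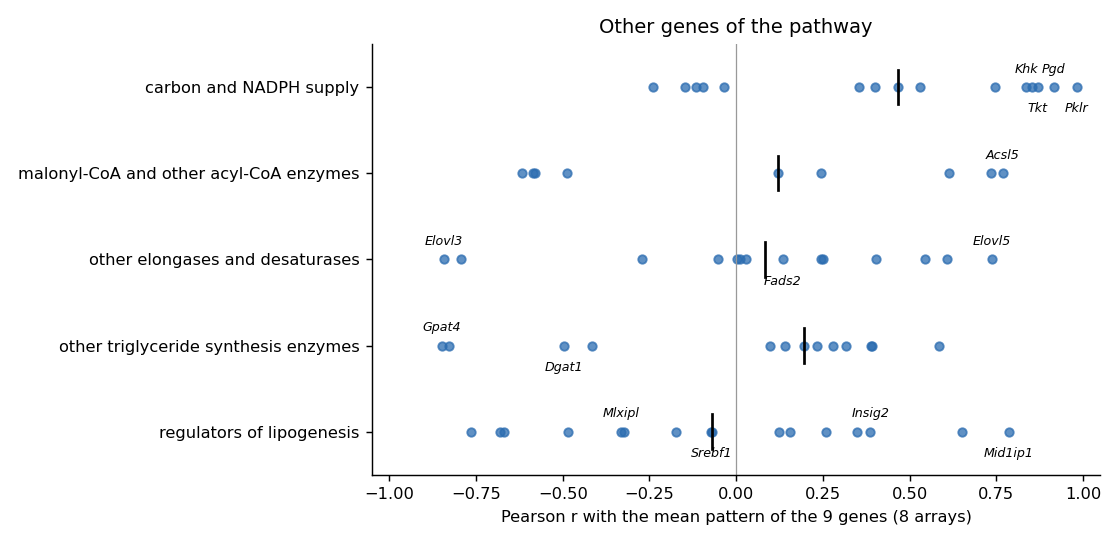
Pearson r over 8 arrays between each other pathway gene and the mean pattern of the 9 genes (x axis), in 1 row per gene list, with a bar at the list's median and some genes named. Pklr (0.98) lies at the right end, Srebf1 (-0.07) near 0, and Elovl3 (-0.84) and Gpat4 (-0.85) at the left end.

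Some markers of other cell types differed between doses, and their part in the values above was not tested. Of 6 Kupffer cell and macrophage markers tested, Adgre1, Clec4f, Vsig4 and Csf1r rose at 25 against 0 ng/hr (log2 0.56 to 0.95, adjusted p between 0.0307 and 0.0464 in limma's test). Of all features 0.887% passed there. Features called in this comparison numbered 0 to 130 with 1 array left out, so these 4 calls did not hold throughout. The calls of marker genes were not followed gene by gene under the alternatives. The summed intensity of the list was 1803 to 1960 at 0 ng/hr, 2580 to 2968 at 12.5 ng/hr and 2860 to 3146 at 25 ng/hr, and Cd5l was above background on no array. Of 8 stellate cell and fibroblast markers, Col1a1, Col3a1 and Lum fell at 25 against 12.5 ng/hr (log2 -2.14, -1.45 and -1.38, adjusted p between 0.0170 and 0.0446 in limma's test). In that comparison 0.424% of all features passed. Against 0 ng/hr none of these genes passed. Their estimates, in the same order, were 1.43, 0.93 and 0.55 at 12.5 ng/hr and -0.71, -0.51 and -0.83 at 25 ng/hr. Col1a1 and Col3a1 were dim at 25 ng/hr (mean log2 4.58 and 4.80), so the size of their fall depends on the background correction. The summed intensity of this list, mostly Dcn by level, was 7436 to 12595 at 0 ng/hr, 10894 to 10959 at 12.5 ng/hr and 6179 to 7469 at 25 ng/hr. Its range need not follow Dcn, because Acta2 varied most among these markers. The SE at 25 minus 0 ng/hr was 0.93 for Acta2 and 0.15 for Dcn. Of 7 adipocyte markers, Plin1, Fabp4 and Retn were above background on no array, as was the Alb probe in these livers. Cfd was above background on all arrays, with 467, 365 and 195 at 0 ng/hr, 1008 and 834 at 12.5 ng/hr, and 2237, 1212 and 103 at 25 ng/hr. Its log2 difference was 1.03 for 25 minus 0 ng/hr (SE 0.95, adjusted p = 0.634 in limma's test) and 1.51 for 12.5 minus 0 ng/hr (SE 1.06, adjusted p = 0.639). Adipoq and Lep were highest in control replicate 1, at 109 and 123, against at most 33.4 and 42.3 elsewhere. The sum of the adipocyte list was 8479 to 14055 at 0 ng/hr, 13118 to 14593 at 12.5 ng/hr and 15751 to 20277 at 25 ng/hr. This sum was mostly Car3, so it follows that probe and is not a measure of adipocytes. Of the 4 adipocyte markers tested, 2 were below 0 and 2 above at 25 minus 0 ng/hr. The sum of 6 endothelial markers, mostly Clec4g, was 4351 to 4989 at 0 ng/hr, 4732 to 5175 at 12.5 ng/hr and 5273 to 6505 at 25 ng/hr, and that of the cholangiocyte markers, mostly Spp1, 639 to 1201, 1614 to 1821 and 605 to 801 at the same doses. None of the endothelial or cholangiocyte markers passed in any comparison. At 25 minus 0 ng/hr 3 endothelial markers were below 0, among them Vwf (-0.66, adjusted p = 0.0509 in limma's test), and 3 above, among them Clec4g (0.55, adjusted p = 0.0875), with a median of 0.0089. Over the 8 arrays each summed list follows a few bright or variable probes, so its r with the pattern describes those probes and not cell content. This r was 0.05 for the hepatocyte list, -0.63 for the adipocyte list (mostly Car3) and -0.46 for the Kupffer cell list. For the stellate cell list it was 0.45, for the endothelial list -0.77 and for the cholangiocyte list 0.67.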

How the data were processed

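Liver RNA of 8 samples was measured on Illumina arrays. Livers were frozen, RNA was prepared with Trizol, and an Ambion kit made the biotinylated cRNA, per the labels' protocols. The sources used here name neither scanner software nor genome build. The authors deposited an average intensity per probe and array with no scaling, and a detection p-value for each, per the file headers. A second deposited table holds these intensities times 1 factor per array (0.927 to 1.08), the authors' group means and each ratio of those means. The deposited series matrix values equal that scaled table.

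Starting from the unscaled intensities, neqc of limma 3.58.1 (R 4.3.3) corrected the background by the detection p-values (offset 16), applied quantile normalization and took log2. Probes with a detection p-value under 0.05 on 2 or more arrays were kept, and the probe with the highest mean log2 signal stood for its gene. Symbols were updated with an NCBI gene table (GRCm38.p6, names only), and 900 probes had no current symbol. All 8 arrays entered 1 limma fit of 3 group means (lmFit, eBayes), with Benjamini-Hochberg adjustment over all 10141 features and a threshold of 0.05, and the 12.5 ng/hr group of 2 borrows its spread from the others. Errors of differences are standard errors of that fit. The fit was tested on simulated data. Correlations have exact permutation p-values, adjusted over 36 pairs. Promoter windows came from RefSeq (GRCm38.p6) and were searched on both strands.

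The 9 genes and the gene lists were chosen with earlier results of these data known. Named were all 9 genes, genes of a list past the threshold, otherwise the 2 with the smallest p per list at 25 minus 0 and at 12.5 minus 0 ng/hr, and the 5 features most like and the 3 least like the mean pattern. The further genes given with an r over 0.7 or under -0.7, and Mlxipl, Cs and the marker genes, were named after their values were seen. So were Mdh1, Slc25a1, G6pdx and Acss1. A result that the rule selects is not reported here. Alternatives covered background correction, scaling, filters, probes, variance prior, weights, the samples fitted and leaving out each array. Figures were drawn with matplotlib 3.10.9 in Python 3.11.15.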

Additional observations from a re-analysis of the deposited data

How the results depend on the processing

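None of the 9 genes passed the threshold in any of 3 comparisons under any of 17 alternatives (459 values, lowest adjusted p 0.139 in limma's test), and 434 of these values kept their direction. No paired analysis was possible because the replicate numbers 1 to 8 are not shared between groups. At 25 minus 0 ng/hr features called numbered 192 with no background correction, 35 with median scaling, 188 with the authors' scaled intensities, 48 with no detection filter, 206 with an intensity-dependent prior, 15 in a fit of only the groups compared, and 0 to 130 with 1 array left out. At 12.5 minus 0 ng/hr they numbered 9, 10 and 7 with no background correction, the authors' scaled intensities and the intensity-dependent prior, and 0 to 2 with 1 array left out. At 25 minus 12.5 ng/hr they numbered 77, 110, 17 and 78 with no background correction, the authors' scaled intensities, no detection filter and the intensity-dependent prior, and 0 to 61 with 1 array left out. Correlated pairs called numbered 34 of 36 with median scaling. Dgat2 at 12.5 minus 0 ng/hr turned to -0.0022 with median scaling and to -0.00014 with the authors' scaled intensities. With 1 array left out, the log2 difference of 12.5 minus 0 ng/hr ranged over both signs for Acly (-0.27 to 0.55), Acaca (-0.43 to 0.23), Fasn (-0.32 to 0.40), Elovl6 (-0.64 to 0.69), Me1 (-0.32 to 0.20), Gpam (-0.27 to 0.38) and Dgat2 (-0.017 to 0.074). At 25 minus 0 ng/hr it did so for Scd1 (-0.30 to 0.0098), Me1 (-0.50 to 0.092) and Dgat2 (-0.11 to 0.025), and at 25 minus 12.5 ng/hr for Me1 (-0.41 to 0.18). The median of the 9 genes ranged over -0.74 to -0.25 at 25 minus 0 ng/hr, -0.27 to 0.23 at 12.5 minus 0 ng/hr and -0.82 to -0.24 at 25 minus 12.5 ng/hr. A fit without 1 of the 12.5 ng/hr arrays leaves a lone array there, assumed to vary like the other groups. The Elovl3 and Insig2 calls at 25 minus 0 ng/hr were lost with median scaling, with no detection filter, in a fit of only the groups compared, and without any 1 array, except that Elovl3 passed without 25 ng/hr replicate 8 (adjusted p = 0.0135). The causes were not tested.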

Other observations

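The features least like the pattern of the 9 genes, picked as the lowest r of 10132, ran opposite to it across the 8 arrays. Srd5a1, which encodes a steroid 5-alpha-reductase (r = -0.97), had an intensity of 489, 348 and 681 at 0 ng/hr, 602 and 376 at 12.5 ng/hr, and 1008, 834 and 517 at 25 ng/hr. Its lowest arrays were control replicate 2 and 12.5 ng/hr replicate 5, and its highest were 25 ng/hr replicates 6 and 7. Cacna1d, a calcium channel gene with a dim probe, read 24.1 to 33.5 at 0 ng/hr, 26.6 and 32.2 at 12.5 ng/hr and 29.6 to 42.6 at 25 ng/hr (r = -0.995). Ap4m1, an adaptor complex gene, read 46.3 to 52.1 at 0 ng/hr, 42.8 and 50.4 at 12.5 ng/hr and 50.6 to 60.2 at 25 ng/hr (r = -0.96).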
